A study of Mus musculus with 4 samples.

Results

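The Nrf2 pathway and the antioxidant enzymes were followed here as 41 genes: 4 regulators and 37 genes of quinone, heme, glutathione, thioredoxin, peroxide, superoxide and NADPH metabolism. They were taken by gene name from the scanner files, where all 41 were found with 67 probes, out of 28090 gene names and 41174 probes on the array. Prostate RNA of male mice was measured on 4 Agilent 1-colour arrays, 1 array for each of 4 groups. These were TRAMP mice given γ-TmT, TRAMP mice given olive oil, C57BL/6 mice given γ-TmT and C57BL/6 mice given olive oil. γ-TmT, written TmT below, is a mixture of tocopherols (forms of vitamin E) rich in γ-tocopherol, given once by gavage at 600 mg/kg, and prostates were taken 12 hours later. All mice were 8 weeks old, had eaten an AIN-76A diet and had been fasted overnight, and each group had 3 mice. The labels do not state whether an array held RNA of 1 mouse or of a pool, and all 4 arrays lay on 1 slide. TRAMP is a transgenic model of prostate cancer in which the rat probasin promoter drives SV40 early genes in prostate epithelium, and no label states on which strain these TRAMP mice were kept.

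Nrf2, encoded by Nfe2l2, is a transcription factor that Keap1 holds in the cytoplasm and passes to degradation. Electrophiles and oxidants modify cysteines of Keap1, Nrf2 then builds up in the nucleus, pairs with a small Maf protein and binds antioxidant response elements, while Bach1 competes for the same elements. The classical target genes are Nqo1, Hmox1, Gclc, Gclm, Txnrd1, Srxn1 and Slc7a11. Nrf2 is regulated largely through the stability of the protein, which an RNA array does not measure.

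The core of an antioxidant response element, TGACNNNGC on either strand, was searched in the 250 bases before each gene's start in RefSeq's promoters (GRCm38.p6). Promoters were found for 34 of the 41 genes, 42 promoters in all. Of these 42, 7 held the core (16.7%), against 3338 of all 32851 promoters (10.16%). An AP-1 site, TGACTCA on either strand, was in 2 of the 42 (4.76%), against 4.46% of all. The 7 genes with a core were Nfe2l2, Mafg, Gclm, Txnrd1, Prdx1, Sod1 and G6pdx, and the core of Prdx1 overlapped an AP-1 site. A match is a description of letters and not a binding site. The promoters of the regulator itself, of a pair of classical targets and of the peroxiredoxin Prdx1 are shown, with the core in capitals.
Nfe2l2, chr2:75704664-75704913, − strand: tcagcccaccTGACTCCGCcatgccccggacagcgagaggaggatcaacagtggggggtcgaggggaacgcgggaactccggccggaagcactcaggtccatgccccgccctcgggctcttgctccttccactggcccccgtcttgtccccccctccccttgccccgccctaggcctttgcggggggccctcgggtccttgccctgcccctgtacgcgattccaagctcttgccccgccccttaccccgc
Gclm, chr3:122245307-122245556, + strand: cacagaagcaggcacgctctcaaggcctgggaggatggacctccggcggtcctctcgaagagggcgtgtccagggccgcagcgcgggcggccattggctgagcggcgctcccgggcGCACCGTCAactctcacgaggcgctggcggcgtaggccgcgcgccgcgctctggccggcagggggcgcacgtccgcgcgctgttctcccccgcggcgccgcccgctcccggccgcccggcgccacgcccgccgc
Txnrd1, chr10:82858956-82859205, + strand: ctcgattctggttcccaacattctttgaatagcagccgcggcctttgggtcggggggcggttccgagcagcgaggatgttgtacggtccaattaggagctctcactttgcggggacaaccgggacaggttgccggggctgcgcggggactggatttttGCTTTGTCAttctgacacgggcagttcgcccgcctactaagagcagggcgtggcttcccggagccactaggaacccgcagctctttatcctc
Prdx1, chr4:116685349-116685598, + strand: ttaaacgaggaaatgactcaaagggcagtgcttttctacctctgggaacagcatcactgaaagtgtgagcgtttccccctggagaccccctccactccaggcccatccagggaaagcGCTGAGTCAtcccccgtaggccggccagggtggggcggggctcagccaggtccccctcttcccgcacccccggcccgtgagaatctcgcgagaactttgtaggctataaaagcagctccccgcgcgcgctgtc

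The capitals began 240 bases before the start of Nfe2l2, 134 before that of Gclm, 92 before that of Txnrd1 and 133 before that of Prdx1. Of these genes, Txnrd1 and Prdx1 had their highest signal on the TRAMP oil array, Nfe2l2 had its highest on the C57BL/6 oil array, and Gclm was well above background on the C57BL/6 oil array only. Further sequences shown are those of probes behind the differences between lines, on mm9, given because a signal reports only the transcript stretch that these 60 bases pair with. The Gss and Tkt sequences are those of the brightest probes, while the Prdx6 sequence is that of a dimmer probe with line differences of -2.05 after oil and -1.81 after TmT. The Gss probe covers 1100 bases of the genome and so spans an intron, and the exons under the other probes were not looked up.
Prdx6, chr1:163177402-163177461, − strand: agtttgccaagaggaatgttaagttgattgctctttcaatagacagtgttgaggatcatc
Gss, chr2:155389432-155390531, − strand: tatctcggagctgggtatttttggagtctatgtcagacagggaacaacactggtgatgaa
Tkt, chr14:31386641-31386700, + strand: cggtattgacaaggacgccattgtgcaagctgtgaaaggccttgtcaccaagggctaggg

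Levels are given as scaled log2 signals: the log2 of the scanner software's processed signal minus the log2 of the 75th percentile of its array. That percentile was 71.3 in TRAMP after TmT, 139 in TRAMP after oil, 118 in C57BL/6 after TmT and 161 in C57BL/6 after oil, so the TRAMP TmT array was the dimmest. Spots well above background made up 63.9%, 70.4%, 68.1% and 74.1% of 43379 spots in that order. All 8 markers of prostate secretory epithelium were above background on every array. Their median was lower in TRAMP by 1.13 log2 units after oil and by 1.20 after TmT, while the 3 markers of dividing cells were higher in TRAMP, with medians of 2.62 and 2.29. In whole tissue, fewer cells of a type and less RNA per cell cannot be told apart.

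With 1 array in each group no test was possible within a pair of arrays. The figure after ± is the scanner software's own error of the spots involved; it holds no spread between animals. Of the 41 genes, 35 were well above background on all 4 arrays. Aldh3a1, Gclm and Sod3 were above it on the C57BL/6 oil array only, and Slc7a11 on the C57BL/6 arrays only. Fth1 (ferritin heavy chain) had its spot marked as an outlier on the TRAMP oil array, and Taldo1 (transaldolase) on both TRAMP arrays, so these have no value there. The 35 were selected through their own signal and are not all members.

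In the signals as deposited, most of the antioxidant genes lay within 2-fold of oil after TmT in both lines. In TRAMP, 4 of 35 measured genes were at least 2-fold lower after TmT (Nqo1, Me1, Prdx6 and Prdx4) and 0 were at least 2-fold higher. Over all genes measured on both arrays, 4.86% were lower and 8.67% were higher by that size, 13.5% together. The 35 genes had a median of -0.07, against 0.10 over all genes. In C57BL/6, 0 of 38 measured genes differed by 2-fold after TmT, against 5.78% of all genes (3.15% higher and 2.63% lower), and the median was -0.02, against 0.02 over all genes. Their differences in C57BL/6 ran from -0.76 to 0.64, and 18 of the 38 lay within the spot error, against 7360 of all 18722 genes measured. With normexp background correction in place of the deposited one, 27 of 35 genes in TRAMP and 27 of 38 in C57BL/6 differed by 2-fold after TmT, against 54.1% and 57.3% of all genes. With that correction 8 of the 24 members beyond the spot error in TRAMP, and 12 of 20 in C57BL/6, turned direction. When spots of very high local background were left out, 7 of 24 and 4 of 20 did. How many of all genes turned was not computed. The direction of the TmT difference was the same in both lines for 15 of 35 genes (42.9%), against 55.7% of all genes.

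Between the lines, 3 of 35 genes were at least 2-fold higher in TRAMP after oil (Tkt, Prdx4 and Nqo1), against 7.74% of all genes, and 1, Gpx3, was at least 2-fold lower, against 7.84%. These 4 were 4 of 35, against 15.6% of all genes in either direction. Under quantile normalization the split was 4 higher and 0 lower. All genes shifted the same way, to 1709 higher and 1265 lower of 18901, from 1462 and 1482 as deposited. After TmT, 0 of 36 were at least 2-fold higher in TRAMP, against 8.41% of all genes, and 3 were lower (Prdx6, Nqo1 and Gss), against 6.11%, or 14.5% in either direction. The medians were -0.11 after oil and -0.12 after TmT, against -0.07 and 0.01 over all genes. The line difference had the same direction after both treatments in 23 of 35 genes (65.7%), against 63.2% of all genes. The TmT comparison in TRAMP and the line comparison after oil share the TRAMP oil array, so a gene that was high on that array appears in both.

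**Figure D1:**
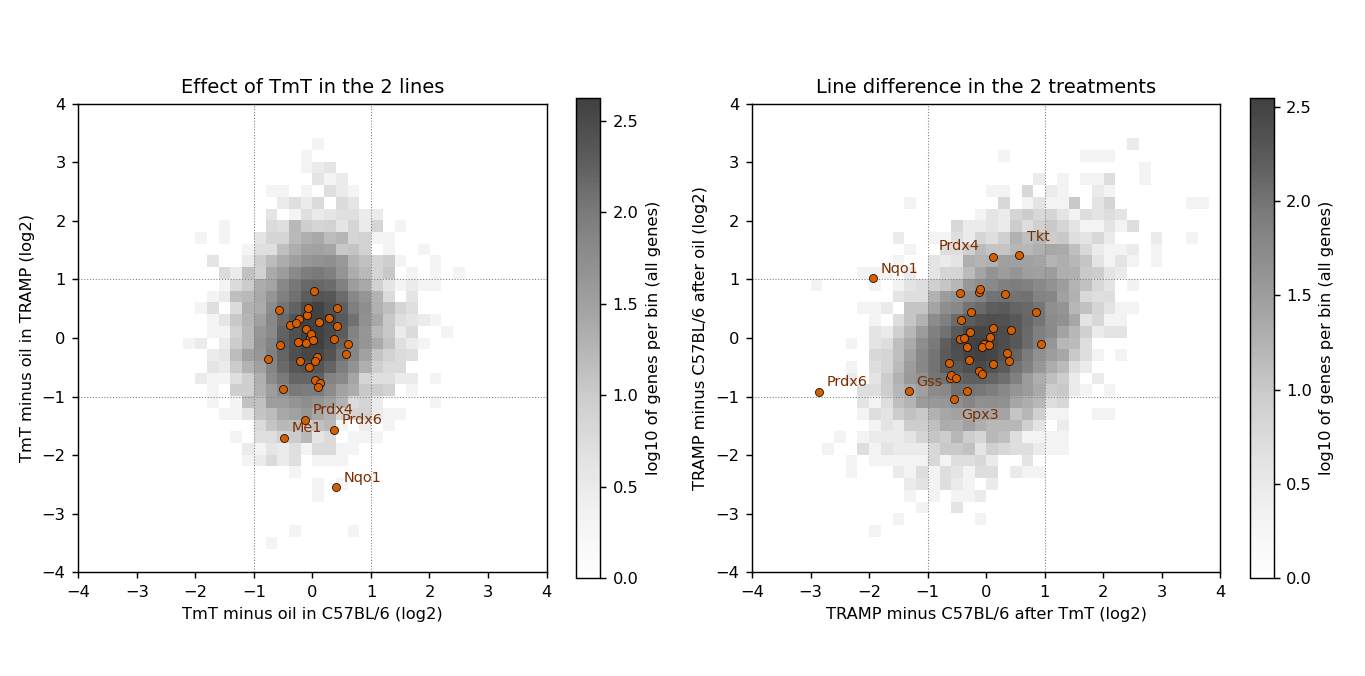
Each orange point is a gene of the pathway well above background on all 4 arrays, and grey squares count all genes on a log10 scale. The left panel sets the log2 difference TmT minus oil in TRAMP against that in C57BL/6, and the right panel sets TRAMP minus C57BL/6 after oil against the same after TmT. Dotted lines mark 2-fold. Most points lie inside them, and Nqo1 at -2.55 in TRAMP and Prdx6 at -2.86 after TmT lie farthest out.

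Over the 4 arrays, the range of a gene's signal had a median of 0.75 among the 35 genes, against 0.84 among all 16875 genes above background on all 4 arrays. A range of at least 1 log2 unit was seen in 8 of the 35 (22.9%), against 37.7% of all genes. These 8 were Prdx6, Nqo1, Me1, Prdx4, Tkt, Gss, Gpx2 and Gpx3. The highest signal stood on the TRAMP TmT array for 4 genes, on the TRAMP oil array for 12, on the C57BL/6 TmT array for 7 and on the C57BL/6 oil array for 12. Over all 16875 genes these shares were 30.1%, 21.9%, 24.7% and 23.2% in the same order. The lowest signal stood on these arrays for 13, 11, 6 and 5 genes, against 24.9%, 32.8%, 20.3% and 21.9% of all genes.

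**Figure D2:**
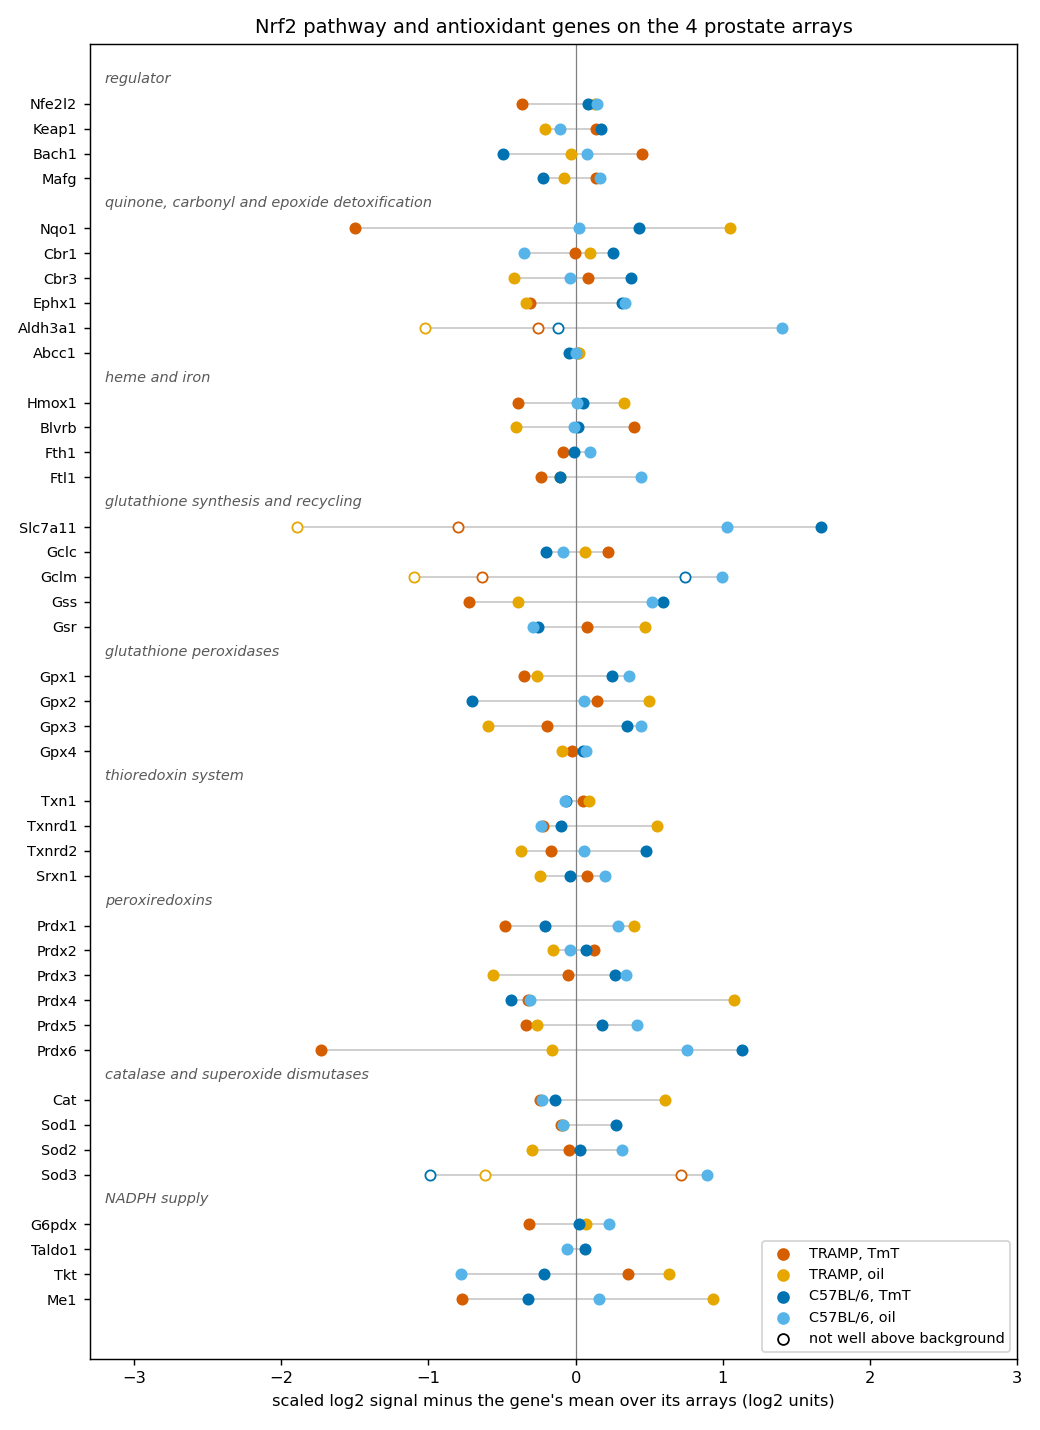
Scaled log2 signal of the 41 genes on the 4 arrays, each gene centred on its own mean over the arrays that gave a value, grouped by role. Filled circles are well above background and open circles are not. Most rows span less than 1 log2 unit, while Nqo1 (range 2.55) and Prdx6 (range 2.86) spread widest among genes above background on all 4 arrays.

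The regulators differed by less than 2-fold in all 4 comparisons. Nfe2l2 had scaled log2 signals of 1.27 in TRAMP after TmT, 1.77 in TRAMP after oil, 1.72 in C57BL/6 after TmT and 1.78 in C57BL/6 after oil. Keap1, the inhibitor, had 1.63 and 1.28 in TRAMP after TmT and oil, and 1.67 and 1.39 in C57BL/6. Keap1 was thus higher after TmT in both lines, by 0.35 ± 0.20 in TRAMP and 0.28 ± 0.20 in C57BL/6, and Nfe2l2 was lower after TmT by 0.49 ± 0.20 in TRAMP and by 0.06 ± 0.20 in C57BL/6. The Keap1 direction turned with normexp, to -1.13 and -1.14 in the same order. With normexp but without spots of very high local background, Keap1 had -0.11 and -0.01, within the spot error. Bach1, the repressor, was dim, at -2.70 and -3.18 in TRAMP after TmT and oil and -3.64 and -3.07 in C57BL/6. Its line difference after TmT was 0.94 ± 0.34, just under 2-fold. Mafg, a small Maf partner, had -1.65 and -1.87 in TRAMP and -2.01 and -1.62 in C57BL/6 after TmT and oil. Its 2 probes had opposite signs in all 4 comparisons.

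Among genes of quinone, carbonyl and epoxide detoxification, Nqo1, the quinone reductase, stood apart. Its scaled log2 signal was -0.70 in TRAMP after TmT, 1.84 in TRAMP after oil, 1.23 in C57BL/6 after TmT and 0.82 in C57BL/6 after oil. The TRAMP oil array was the highest and the TRAMP TmT array the lowest, with both C57BL/6 arrays between. TmT minus oil was -2.55 ± 0.18 in TRAMP (5.85-fold lower) and 0.41 ± 0.20 in C57BL/6. TRAMP minus C57BL/6 was 1.03 ± 0.18 after oil and -1.93 ± 0.21 after TmT.

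These Nqo1 values depend on 1 spot near the edge of the array, in row 521 of 532. The scanner software divides each signal by a smooth surface over the array (detrending), and it had applied this to every array but TRAMP after TmT. At the Nqo1 spot the surface was 0.653 on the TRAMP TmT array, where it was not applied, 0.294 on the TRAMP oil array, 0.852 on C57BL/6 after TmT and 0.629 on C57BL/6 after oil. It thus raised the TRAMP oil signal to 498 units, against 146 before. With the surface applied on all 4 arrays, TmT minus oil in TRAMP was -1.93, and with it applied on none it was -0.79. TRAMP minus C57BL/6 after oil was 1.03 with the surface on all 4 arrays and -0.060 with it on none, and after TmT it was -1.31 and -1.69. With normexp background correction, TmT minus oil in TRAMP was -0.07, or -0.37 when spots of very high local background were left out. TRAMP minus C57BL/6 after TmT was -0.055 with normexp, or -0.99 without those spots, and after oil it was -0.038 in both. Among all members beyond the spot error, taking the surface off turned the direction of 2 of 24 for TmT in TRAMP (Hmox1 and Txnrd2) and of 3 of 25 for the lines after oil (Nqo1, Hmox1 and Prdx2). It moved more members by over their spot error: 19 of 35 for TmT in TRAMP and 10 of 35 for the lines after oil. For TmT in C57BL/6 it so moved 3 of 38, and for the lines after TmT 1 of 36. These shares were not computed over all genes.

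**Figure D3:**
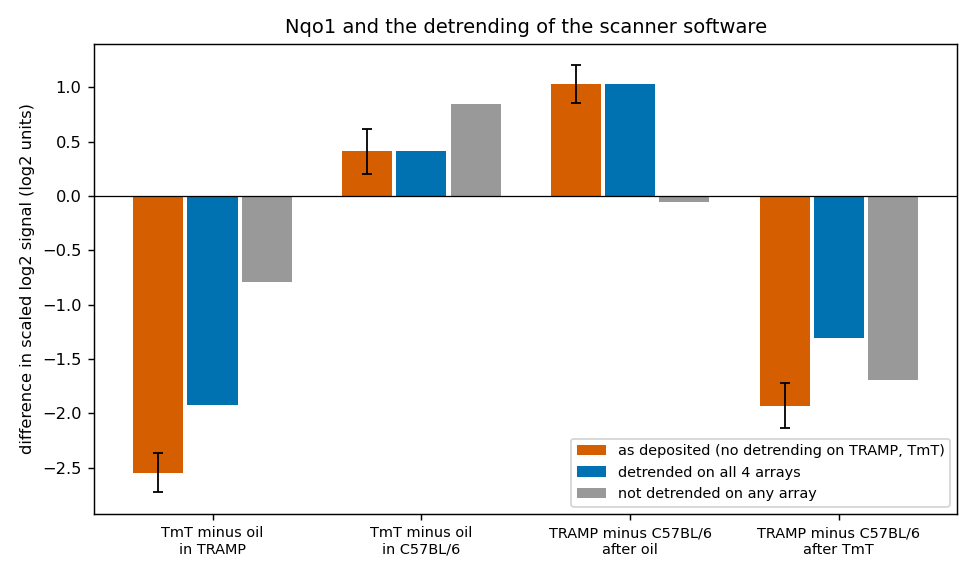
Log2 differences of Nqo1 in the 4 comparisons, as deposited (orange, with the scanner software's spot error), with the software's detrending surface applied on all 4 arrays (blue) and with it applied on none (grey). TmT minus oil in TRAMP shrinks to -0.79 without detrending, from a deposited -2.55, and TRAMP minus C57BL/6 after TmT is between -1.31 and -1.93 in the 3 settings drawn.

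The carbonyl reductases Cbr1 and Cbr3, the epoxide hydrolase Ephx1 and the conjugate transporter Abcc1 differed by less than 2-fold in all 4 comparisons. Abcc1 had the smallest range of all 35 genes, 0.07 log2 units, on its brightest probe. Ephx1 was lower in TRAMP by 0.68 ± 0.20 after oil and by 0.62 ± 0.21 after TmT, and its 2 probes had the same sign. Cbr3 was higher after TmT in both lines, by 0.51 ± 0.20 in TRAMP and by 0.41 ± 0.20 in C57BL/6. Its value in TRAMP was 1.25, past 2-fold, with detrending on none of the arrays, and 0.80 with it on all 4. For Cbr3 normexp gave 0.08 in TRAMP and -0.38 in C57BL/6, or 0.76 and 0.45 without spots of very high local background. Aldh3a1, an aldehyde dehydrogenase, had -5.13 and -5.90 in TRAMP after TmT and oil, and -4.99 and -3.47 in C57BL/6 after TmT and oil. Only the last was well above background, so the differences that involve it are given as bounds. For Aldh3a1 the bound was 2.62-fold lower in TRAMP after oil than in C57BL/6 after oil. In C57BL/6 it was 2.14-fold lower after TmT than after oil. Such a bound sets the bright value against the lowest signal well above background on the other array, or the gene's own where that is higher. It is approximate, because it leaves out the spot error and some spots above that lowest signal were not well above background.

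In heme and iron handling, the heme-degrading enzyme Hmox1 had 0.78 in TRAMP after TmT, 1.5 in TRAMP after oil, 1.22 in C57BL/6 after TmT and 1.18 in C57BL/6 after oil. TmT minus oil was -0.72 ± 0.20 in TRAMP and 0.04 ± 0.20 in C57BL/6, within the spot error. In TRAMP this was -0.55 with detrending on all 4 arrays and 0.37 with it on none, and TRAMP minus C57BL/6 after oil was 0.32 as deposited and -0.76 with detrending on none. No direction of Hmox1 can be given for either comparison. Blvrb, a biliverdin reductase, was 0.80 ± 0.21 higher after TmT, with 0.03 ± 0.21 in C57BL/6. Ftl1, the ferritin light chain, was lower by 0.56 ± 0.20 in TRAMP than in C57BL/6 after oil. Fth1 had 5.63 in TRAMP after TmT, 5.71 in C57BL/6 after TmT and 5.82 in C57BL/6 after oil.

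In glutathione synthesis, Gclc, the catalytic subunit of the rate-limiting ligase, differed by at most 0.42 between any 2 arrays compared. It had 2.84 and 2.68 in TRAMP after TmT and oil, and 2.42 and 2.54 in C57BL/6. Gclm, the modifier subunit, had -5.78, -6.24, -4.40 and -4.15 in the same order and was above background on the last array only. Its approximate bound after oil was 1.63-fold lower in TRAMP than in C57BL/6. Slc7a11, the cystine transporter, had -5.84 and -6.94 in TRAMP after TmT and oil, not well above background, and -3.38 and -4.02 in C57BL/6. The approximate bounds for Slc7a11 were 1.79-fold lower in TRAMP after oil and 1.11-fold lower after TmT. The other 3 of its 4 probes were above background on no array.

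Gss, glutathione synthetase, was lower in TRAMP after both treatments. It had 0.86 and 1.19 in TRAMP after TmT and oil, and 2.18 and 2.10 in C57BL/6, so that both TRAMP values lay below both C57BL/6 values. TRAMP minus C57BL/6 was -0.91 ± 0.20 after oil and -1.32 ± 0.20 after TmT. With normexp the value after TmT was -0.18, or -1.14 without spots of high local background. Gsr, glutathione reductase, was higher in TRAMP by 0.76 ± 0.20 after oil and by 0.33 ± 0.20 after TmT. Its 3 probes disagreed in sign after TmT, with values from -0.05 to 1.59. There normexp gave -0.31, or -3.59 without spots of high local background.

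Of the glutathione peroxidases, Gpx1, Gpx3 and Gpx4 had their highest signal on the C57BL/6 oil array. Gpx3, the secreted form, had 3.20 and 2.80 in TRAMP after TmT and oil, against 3.75 and 3.84 in C57BL/6, and both TRAMP values were lower. Its line difference was -1.04 ± 0.20 after oil and -0.54 ± 0.20 after TmT. Gpx1, the cytosolic form, was lower in TRAMP by 0.63 ± 0.20 after oil and by 0.60 ± 0.20 after TmT. Gpx4, which reduces lipid hydroperoxides in membranes, ranged over 0.16 log2 units. Gpx2, the form of the gut epithelium, differed by 0.45 ± 0.22 after oil and 0.85 ± 0.26 after TmT between TRAMP and C57BL/6.

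In the thioredoxin system, Txnrd1, the cytosolic thioredoxin reductase, had 4.03 in TRAMP after TmT, 4.80 in TRAMP after oil, 4.15 in C57BL/6 after TmT and 4.01 in C57BL/6 after oil. The TRAMP oil array was the highest and the other 3 arrays lay within 0.14 of each other. Its difference of TmT minus oil was -0.77 ± 0.20 in TRAMP and 0.14 ± 0.20 in C57BL/6. Srxn1, sulfiredoxin, which repairs overoxidised peroxiredoxins, had 2.35 and 2.02 in TRAMP after TmT and oil, and 2.23 and 2.46 in C57BL/6. TmT minus oil for Srxn1 was 0.32 ± 0.20 in TRAMP and -0.23 ± 0.20 in C57BL/6, and its other probes had the same sign where they were measured. In TRAMP normexp gave -1.73 for Srxn1, or -0.15 without spots of high local background. Txn1, thioredoxin, ranged over 0.16 log2 units. Txnrd2, the mitochondrial reductase, was lower in TRAMP by 0.43 ± 0.20 after oil and by 0.64 ± 0.20 after TmT. Its other probes gave -0.002 and -0.33 after oil, and -0.29 and -0.48 after TmT.

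The peroxiredoxins reduce hydrogen peroxide and organic peroxides, and 4 of the 6 differed by less than 2-fold throughout. Prdx6, which uses glutathione and also acts on phospholipids, was lower in TRAMP. Its scaled log2 signal on the brightest probe was 3.82 in TRAMP after TmT and 5.39 in TRAMP after oil, against 6.68 in C57BL/6 after TmT and 6.31 in C57BL/6 after oil. Both TRAMP values lay below both C57BL/6 values. TRAMP minus C57BL/6 was -0.92 ± 0.20 after oil and -2.86 ± 0.20 after TmT (7.25-fold lower).

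All probes of Prdx6 had the same sign between lines. After oil its 4 probes gave -0.92, -3.15, -1.47 and -2.05, and after TmT the 3 with a value gave -2.86, -1.13 and -1.81. The effect of TmT in TRAMP differed between probes, at -1.57 on the brightest and 1.42, 0.48 and 0.25 on the others. The brightest probe lies in row 504, and with the detrending surface applied on all 4 arrays its value was -1.17, against -0.91 with it on none. The mean over probes was 0.14. No direction for TmT in TRAMP can be given for Prdx6 from these probes.

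**Figure D4:**
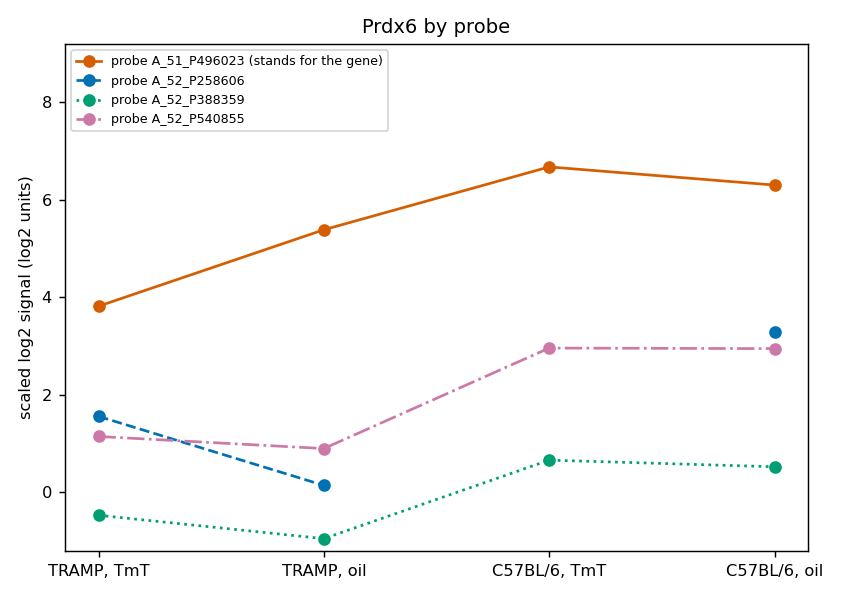
Scaled log2 signal of the 4 Prdx6 probes on the 4 arrays, 1 line per probe, with the probe that stands for the gene in solid orange. A gap marks a spot that the scanner software marked as an outlier. On every probe the TRAMP signals lie below those of C57BL/6, while TmT and oil differ in sign between probes within TRAMP.

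Prdx4, the peroxiredoxin of the endoplasmic reticulum, had 0.50 in TRAMP after TmT, 1.90 in TRAMP after oil, 0.39 in C57BL/6 after TmT and 0.51 in C57BL/6 after oil. The TRAMP oil array stood alone, and the other 3 lay within 0.13 of each other. TmT minus oil was -1.40 ± 0.20 in TRAMP and -0.13 ± 0.20 in C57BL/6, and TRAMP minus C57BL/6 was 1.39 ± 0.20 after oil and 0.12 ± 0.21 after TmT. A dimmer Prdx4 probe gave 0.27 for TmT minus oil in TRAMP and 0.40 for the line difference after oil. The cytosolic Prdx1 was lower after TmT in both lines, by 0.88 ± 0.20 in TRAMP and by 0.50 ± 0.20 in C57BL/6. Prdx3 and Prdx5, which are found in mitochondria, were lower in TRAMP after oil by 0.90 ± 0.20 and by 0.68 ± 0.20. With detrending on none, Prdx5 was -1.18 and Prdx6 -1.32 in that comparison, both past 2-fold. Prdx2 ranged over 0.28 log2 units on its brightest probe, which was printed 10 times.

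Catalase, Cat, had 1.38 in TRAMP after TmT, 2.22 in TRAMP after oil, 1.48 in C57BL/6 after TmT and 1.39 in C57BL/6 after oil. Again the TRAMP oil array was the highest, and TmT minus oil was -0.85 ± 0.20 in TRAMP (-1.11 with detrending on none) and 0.09 ± 0.20 in C57BL/6. The superoxide dismutases Sod1 (cytosolic) and Sod2 (mitochondrial) differed by less than 2-fold. Sod2 was lower in TRAMP after oil by 0.61 ± 0.20 and by 0.07 ± 0.20 after TmT. Sod3, the extracellular form, had -4.75 and -6.08 in TRAMP after TmT and oil and -6.45 and -4.57 in C57BL/6, above background on the last array only.

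Of the genes that supply NADPH, Me1, the cytosolic malic enzyme, was lower after TmT in both lines. It had -0.20 and 1.5 in TRAMP after TmT and oil, and 0.25 and 0.73 in C57BL/6. TmT minus oil was -1.70 ± 0.21 in TRAMP and -0.48 ± 0.20 in C57BL/6, and its second probe gave -2.66 and -0.83. Tkt, transketolase of the pentose phosphate pathway, was higher in TRAMP, with 3.47 and 3.75 after TmT and oil, against 2.90 and 2.34 in C57BL/6. Both TRAMP values of Tkt exceeded both C57BL/6 values, by 0.57 ± 0.20 after TmT and by 1.41 ± 0.20 after oil. A second Tkt probe gave 0.90 after oil. With normexp the Tkt difference after TmT was -0.33, or 0.24 without spots of high local background. G6pdx, which opens that pathway, ranged over 0.54 log2 units, and Taldo1 had 5.31 and 5.19 in C57BL/6 after TmT and oil.

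In the signals as deposited, 12 antioxidant genes were highest on the TRAMP oil array. These were Nqo1, Prdx4, Me1, Cat, Txnrd1, Hmox1, Gsr, Tkt, Gpx2, Prdx1, Txn1 and Abcc1, of which Abcc1 and Txn1 ranged over only 0.07 and 0.16. With detrending on none, TRAMP minus C57BL/6 after oil was -0.060 for Nqo1, -0.76 for Hmox1 and -0.15 for Prdx1, and positive for the others. Adipocyte markers were also highest on that array: of the 8 in the files, 7 were above background there, and Lep, a defining marker, was above it on no array. The summed scaled signal of the 8 was 29.1 in TRAMP after TmT, 250.3 in TRAMP after oil, 23.7 in C57BL/6 after TmT and 44.2 in C57BL/6 after oil. Of the 5 markers measured on both TRAMP arrays, all 5 were at least 2-fold lower after TmT, with a median of -3.37. TRAMP minus C57BL/6 had a median of 2.67 after oil over 7 markers and of -0.22 after TmT over 5. The part of adipocytes in the values of the 12 genes was not tested. Between the lines, 0 of 35 members passed 2-fold after both treatments. For the 4 that passed it after 1 treatment with both TRAMP values on the same side of both C57BL/6 values (Gss, Prdx6 and Gpx3 lower, Tkt higher), markers of secretory epithelium and of dividing cells differed between the same arrays, with the medians given above, and their part was not tested either.

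**Figure D5:**
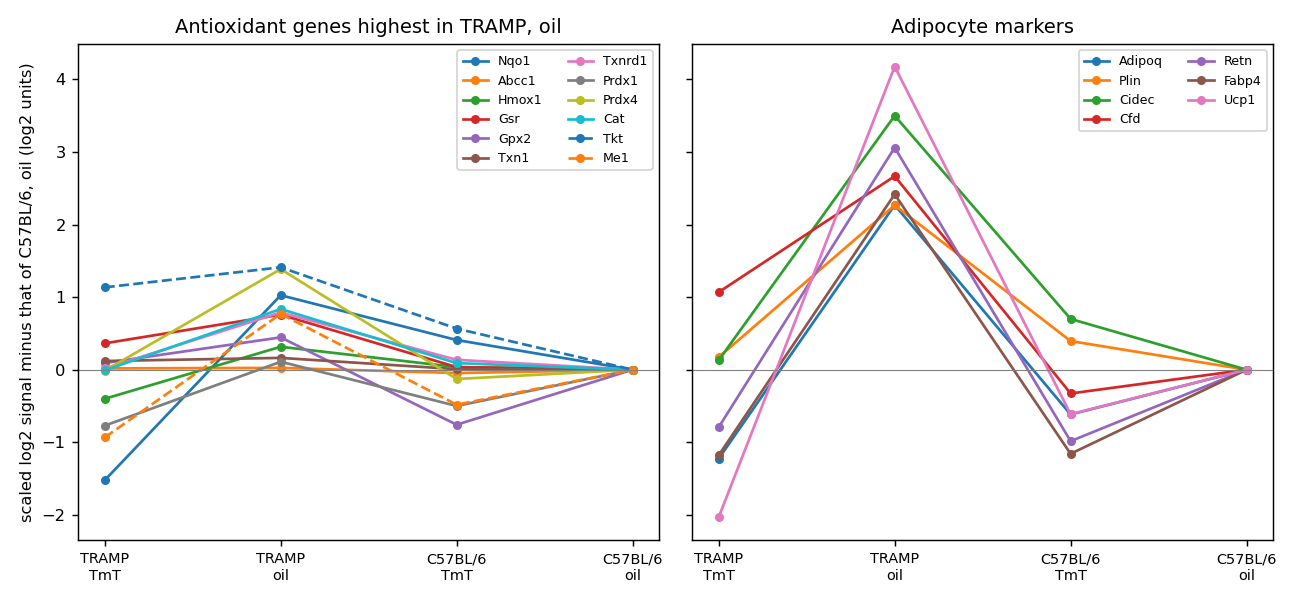
Scaled log2 signal relative to the C57BL/6 oil array, for the 12 antioxidant genes highest on the TRAMP oil array (left) and the 7 adipocyte markers above background there (right), 1 line per gene over the 4 arrays. The genes of both panels were chosen by their deposited signal on the TRAMP oil array, so that the peak of the left panel is fixed by the choice. On that array the antioxidant genes lie between 0.02 and 1.41 and the markers between 2.27 and 4.18.

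Genotype and treatment were then fitted together over the 4 arrays with limma on 19827 genes, with the interaction serving as error. No gene passed an adjusted p of 0.05 for either factor (0.0% of all genes). The smallest adjusted p was 0.0511 for genotype and 0.779 for treatment. Unadjusted p-values under 0.05 were found for genotype in 4 of 36 members (15.1% of all genes) and for treatment in 2 (6.24% of all genes). For genotype these were Slc7a11 at -2.70 ± 0.33 (fitted difference ± SE, limma adjusted p = 0.0701), Prdx6 at -1.89 ± 0.53 (adjusted p = 0.215), Gss at -1.12 ± 0.33 (adjusted p = 0.229) and Tkt at 0.99 ± 0.37 (adjusted p = 0.307). The Slc7a11 fit rests on TRAMP signals that were not well above background. It passed with median centring (limma adjusted p = 0.0467), as did 0.479% of all genes. For treatment the pair was Me1 at -1.09 ± 0.41 and Slc7a11 at 0.87 ± 0.33, both with a limma adjusted p of 0.779. Nqo1, whose TmT differences had opposite signs in the lines, had a fitted treatment difference of -1.07 ± 0.71.

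Fitted probe by probe, Prdx6 had genotype differences of -1.89 ± 0.53, -1.30 ± 0.34 and -1.93 ± 0.33 (limma adjusted p = 0.230, 0.204 and 0.112). On simulated data of 19827 genes this fit recovered 0% of the genotype differences of 1 log2 unit and 18% of those of 2 log2 units. Recovery was 86% at 3 log2 units and 100% at 4. In that simulation 2-fold genotype differences were thus not detected. Only a small part of its genes was changed and no interaction was added, so recovery in these data may differ.

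Of 99 further antioxidant and Nrf2-linked gene names, 93 were in the files. For TmT minus oil, 5 of 80 measured were at least 2-fold higher and 3 lower in TRAMP, and 2 of 86 were higher and 2 lower in C57BL/6. For TRAMP minus C57BL/6, 6 of 84 were higher and 7 lower after oil, and 2 of 82 were higher and 6 lower after TmT. The shares over all genes are those given for the pathway.

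Of these further genes, 4 differed by 2-fold in the same direction in both comparisons of a kind, 3 between the lines and 1 after TmT. Of all 16875 genes, 759 (4.50%) did so between the lines and 133 (0.788%) after TmT, and of the 35 members 0 did in either. Mt1, the metal-binding metallothionein, was lower in TRAMP, with 3.70 and 2.45 after TmT and oil, against 5.56 and 4.59 in C57BL/6. Abcc5, an organic anion transporter, was higher in TRAMP by 1.59 ± 0.21 after oil and by 1.20 ± 0.21 after TmT. Xdh, the xanthine dehydrogenase, was higher in TRAMP by 1.45 ± 0.25 after oil and by 1.35 ± 0.30 after TmT. Akr1b7, an aldo-keto reductase abundant in the mouse vas deferens, was higher after TmT, with 5.23 and 1.03 in TRAMP after TmT and oil, and 6.05 and 4.78 in C57BL/6. Of the 6 markers of epididymis and vas deferens, only Akr1b7 and Defb2 were above background, on all 4 arrays, and the part of that tissue was not tested.

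Several probes were present for 14 of the 41 genes, which gives a further measure of error. The median spread between probes of 1 gene was 0.75 log2 units for TmT in TRAMP (13 genes), 0.45 for TmT in C57BL/6 (12 genes), 0.45 for the lines after oil (13 genes) and 0.51 for the lines after TmT (12 genes). Probes disagreed in sign in 7 of 13, 6 of 12, 2 of 13 and 4 of 12 genes. These median spreads are larger than the median spot error of 0.20, but the measures are unlike. A spread is the largest minus the smallest value among a gene's probes, dim ones included. The spot error is that of a single difference on the brightest probe.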

How the data were processed

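Per the file headers, the deposited intensity values are processed signals of Agilent Feature Extraction 10.2.1.3 (protocol GE1-v5_10_Apr08, probe positions on mm9), background-subtracted and detrended within the array, with no normalization between arrays. The series' deposited value table held the same intensity for all 45018 features of each array. Background, saturation and outlier flags come from the same software. Medians of that table were 13.8 in TRAMP after TmT, 25.3 in TRAMP after oil, 21.3 in C57BL/6 after TmT and 30.2 in C57BL/6 after oil, so it is linear and not centred.

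From these, control spots and 178, 348, 207 and 131 outlier spots in the same group order were left out, and 0 spots were saturated. Log2 signals minus the log2 of the array's 75th percentile were averaged over spots of a probe, and the brightest probe stood for a gene. The number of arrays limits the precision. limma 3.58.1 in R 4.3.3 (lmFit, eBayes, Benjamini-Hochberg over all genes) was fitted on genes with a value on all 4 arrays, at least 2 of them well above background (prior: 4.42 degrees of freedom, SD 0.355). It was tested on simulated data of 19827 genes, where 22 unchanged genes were called falsely beside the recovered differences given above. The error behind the p-values is the interaction of genotype and treatment, moderated by that prior. No array was repeated within a group and nothing states separate mice per array. The p-values therefore measure no spread between replicate arrays or between mice.

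Values on all 4 arrays were given for the 4 regulators, 7 classical targets, and genes with a difference or bound of at least 2-fold; further pathway genes were named where both comparisons of a kind passed 2-fold in 1 direction. Other values were added where they describe a role. The members and lists were chosen with earlier results of these data known. Alternatives were quantile normalization, median centring, normexp background correction (offset 50), other detrending, other background filters, the mean over probes, a 1.5-fold threshold, keeping marked spots and limma's trend and robust options.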

Additional observations from a re-analysis of the deposited data

Results flagged for a closer look

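The difference of TmT minus oil had opposite signs in the lines for a pair of genes with a 2-fold difference. For Nqo1, the TmT difference in TRAMP minus that in C57BL/6 was -2.96, and the same contrast read as the line difference after oil minus that after TmT was 2.96. For Prdx6 on its brightest probe, the TmT difference in TRAMP minus that in C57BL/6 was -1.94. With 1 array in each group these differences of differences were not tested. The Nqo1 value rests on 1 spot whose signal changes with the detrending of the software, and the other Prdx6 probes did not share the sign in TRAMP.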

How the results depend on the processing

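No paired analysis was possible because each group has 1 array and the labels carry no replicate numbers. The 11 differences of at least 2-fold were recomputed under 11 settings. The series' value table, the background filters and keeping marked spots left all these values as they were, so they add nothing to the counts below. For the lines after oil, detrending on all 4 arrays also changed nothing, as both arrays had it as deposited. There Nqo1 fell under 2-fold in every setting that changed the background correction (-0.038) or took detrending off (-0.060). Me1 (TmT in TRAMP, -2.18 to -1.29), Tkt (lines after oil, 1.41 to 1.65) and Prdx6 (lines after TmT, -3.82 to -1.92) stayed past 2-fold in all 11. Prdx4 in both of its comparisons, Gpx3 and Gss stayed in 10, Nqo1 between lines after TmT and Prdx6 for TmT in TRAMP in 9, and Nqo1 for TmT in TRAMP and between lines after oil in 8.

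With normexp, the median for TmT was -1.47 in TRAMP and -1.55 in C57BL/6 (0.24 and 0.35 over all genes). Counts past 2-fold were 27 in each line, against 54.1% of all genes in TRAMP and 57.3% in C57BL/6. Between lines after TmT the count was 7 of 36, against 5.61% of all genes. limma called 27 of 36 members for treatment, against 74.4% of all genes. Gss between lines after TmT was then -0.18. A few spots on the TmT arrays had local backgrounds up to 659409 in TRAMP and 137411 in C57BL/6, against 39 and 33 on the oil arrays. Leaving out spots with a local background over 1000, a choice made after seeing the data, gave a median of -0.34 for TmT in TRAMP. In that setting 7 of 35 members were past 2-fold for TmT in TRAMP, against 6.29% of all genes. limma then called 7 members for genotype and 3 for treatment, against 6.66% and 2.60% of all genes. Under both normexp settings Nqo1 between lines after oil was -0.038, and before detrending it was -0.060. Median centring made limma call 1 member for genotype, against 0.479% of all genes. With the mean over probes, Prdx6 for TmT in TRAMP was 0.14. The counts for TmT were then 2 in TRAMP and 1 in C57BL/6, against 12.1% and 5.7% of all genes. At 1.5-fold the counts were 9 for TmT in TRAMP, 3 for TmT in C57BL/6, 15 between lines after oil and 8 after TmT. With no background filter they were 2 for TmT in C57BL/6, 8 between lines after oil and 6 after TmT. Shares over all genes were not computed at 1.5-fold or without the filter, so these counts cannot be compared with all genes. The causes were not tested. Detrending on all 4 arrays and keeping marked spots were also added after seeing the data. Signal over background limits the dim genes Aldh3a1, Gclm, Slc7a11 and Sod3.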
